A study of Mus musculus with 12 samples.

Results

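The genes analysed here were 53 genes of DNA replication and cell division, chosen from their known roles in replication licensing, S phase, and mitosis, in mouse bone marrow–derived macrophages (BMDMs), which are macrophages grown in culture from bone marrow. All 53 were found by symbol among the 43626 genes of the count tables, and all 53 were among the 14308 genes with enough reads to be tested. The 12 RNA-Seq libraries comprised 3 of each of 4 conditions: PBS (vehicle), 3′SL (3′-sialyllactose, a sialylated milk sugar that the labels call HMO, at 100 μg/mL), LPS (a bacterial outer membrane lipid that activates TLR4, at 10 ng/mL), and LPS + 3′SL (both together). The doses and the 6 hours of incubation were taken from the methods of the study, since the treatment text of the labels describes injections of mice. The labels give no strain, sex, age, genotype, or animal for any library, and no agent or allele other than PBS, 3′SL, and LPS, so whether the 3 libraries of a condition came from separate mice is not stated and the p-values measure only the spread between libraries. The comparisons asked how LPS changed the mRNA levels of these genes without and with 3′SL, and how 3′SL changed them without and with LPS.

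Cells that divide first load the MCM helicase onto replication origins with the help of CDC6 and CDT1, then fire the origins with CDC45 and GINS, copy their DNA with DNA polymerases and their clamp PCNA, and finally separate the chromosomes on the mitotic spindle. Transcription of the replication genes is driven largely by E2F factors at the passage from G1 to S phase, and that of many mitosis genes later by FOXM1 and B-MYB. D-type cyclins link growth factor signals to this program, and in BMDMs the growth factor CSF1 drives proliferation, which LPS is known to arrest. In bulk RNA, fewer dividing cells and less of an mRNA in each dividing cell cannot be told apart.

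Between 20411741 and 26851890 reads per library were counted on genes (median 23375851), and levels are given as CPM, that is counts scaled by library size and by TMM factors. These factors differed by condition, at 1.08 to 1.30 in the PBS and 3′SL libraries and 0.700 to 0.939 in those with LPS. The running numbers in the labels place the libraries in 3 sets of 4, numbers 1 to 4, 5 to 8, and 9 to 12, each with 1 library of each condition, and the labels do not say what the numbers stand for. After the means of the conditions were removed, libraries of the same set resembled each other over all tested genes (r across genes 0.529 or higher), and libraries of different sets did not (r -0.0978 or lower). Over the 53 genes alone the separation was not clean. There r was 0.293 or higher within sets (mean 0.660) and reached 0.826 between sets (mean -0.288). Removing a condition's mean over 3 libraries by itself pulls r between its libraries below 0. Below, the 3 values of a condition are given in the order set 1, set 2, set 3, and ratios within a set compare 2 libraries and carry no error. The 10 macrophage markers, among them Csf1r, Adgre1, and Lyz2, summed to 18323 to 29490 CPM over the 12 libraries. The 10 stromal markers, led by Col1a1 and Col1a2, summed to 667 to 776 CPM in set 1, 29.9 to 50.7 in set 2, and 73.4 to 122 in set 3. The 8 neutrophil markers, led by S100a8, S100a9, Ngp, and Ltf, summed to 162 to 249 CPM in set 1, 296 to 479 in set 2, and 331 to 1047 in set 3. The 8 progenitor markers (such as Mpo and Elane) summed to at most 11.1 CPM, the 6 lymphocyte markers to at most 0.921, with Cd3e and Cd3g at 0 everywhere, and the 6 erythroid markers to at most 0.447, with 3 of them at 0 everywhere. Which part these other cells had in the values below was not tested.

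The sets differed in the level of the dividing program itself. In PBS, 50 of the 53 genes were lower in set 3 than in the mean of sets 1 and 2, and the median gene stood at 35.05% of that mean, against 97.9% over all tested genes. For the 16 mitosis genes the median was 21.7%, with a range of 16.1% to 36.7%, and for the 22 genes of origin licensing, helicase, nucleotide supply, and DNA synthesis it was 52.4%. Only Ccnd1 (130%), Fen1 (111%), and Cdt1 (104%) were not lower, and Pcna stood at 97.4%. These ratios compare single libraries and were not tested. The summed stromal markers of PBS were 667, 29.9, and 90.1 CPM in the 3 sets, and the summed neutrophil markers 162, 296, and 572 CPM.

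**Figure D1:**
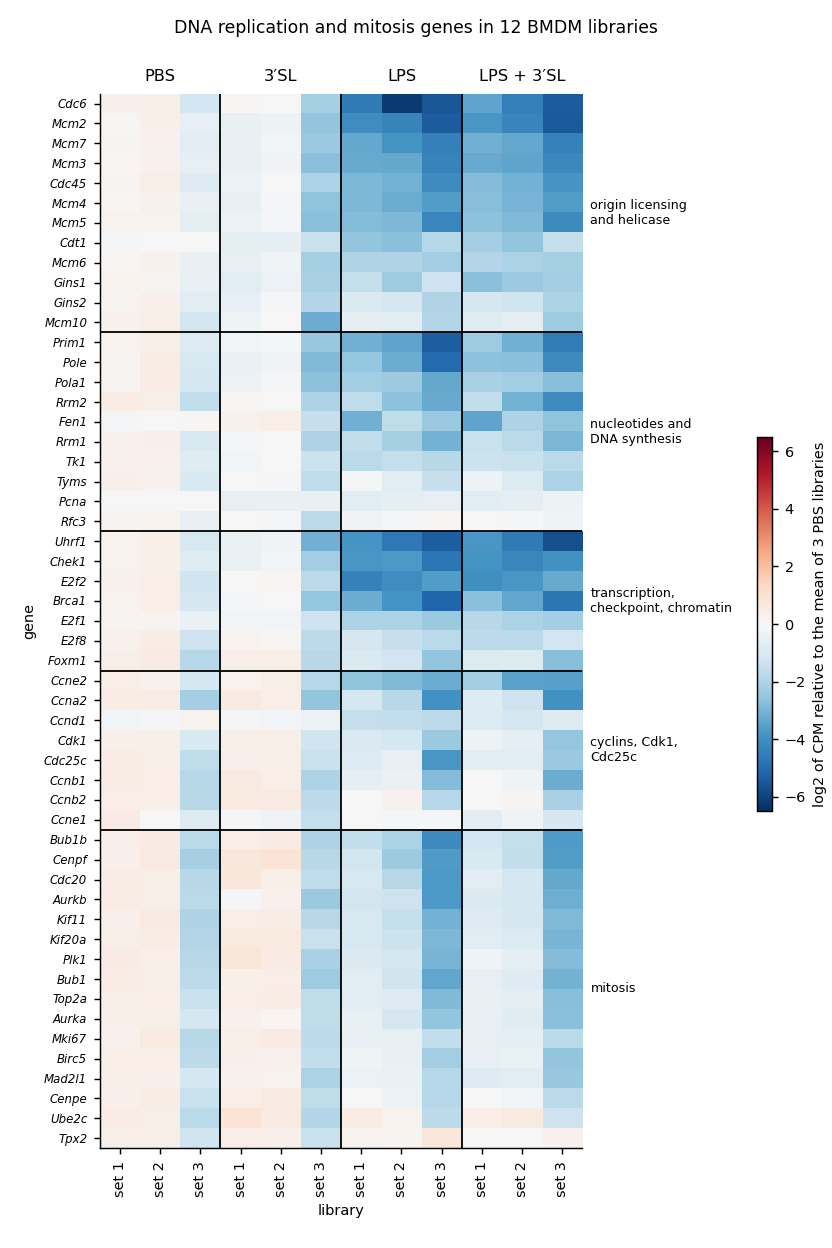
Heat map of the 53 genes (rows, grouped by role and ordered by their change with LPS) in the 12 libraries (columns, 3 sets in each of 4 conditions), colored by the log2 of CPM relative to the gene's mean over the 3 PBS libraries. The blue blocks of the upper rows with LPS are the replication genes, and set 3 is the last column of each condition, which is blue for most genes already in PBS.

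LPS lowered replication genes of BMDMs in every role, from origin licensing to nucleotide supply. Against PBS, 27 of the 53 genes were called lower and 0 were called higher, where a gene was called at a Benjamini-Hochberg adjusted p under 0.05 in edgeR's quasi-likelihood test and a change of at least 1.5-fold. Over all tested genes 20.2% were called lower and 18.3% higher. The median fitted log2 fold change of the 53 genes was -1.69, against -0.06 over all tested genes, and the fitted values ran from -5.28 (Cdc6) to 0.40 (Tpx2). In 48 of the 53 genes the LPS library was the lower one within each of the 3 sets, as it was in 39.0% of all tested genes. In 26 of them, every LPS library lay below every PBS library (31.1% of all tested genes). With the library sets as a block in the model, 46 of the 53 genes were called lower, against 24.0% of all tested genes, and the 7 genes not called were Mki67, Ccnb2, Ccne1, Rfc3, Cenpe, Ube2c, and Tpx2. The count without the block was 47 when set 3 was left out, 15 without set 2, and 18 without set 1. Shares of all tested genes are not given for these fits with a set left out.

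Of the 12 genes of origin licensing and the helicase, 11 were called lower with LPS (20.2% of all tested genes), and the median of their log2 fold changes was -3.21. Mcm10 was not called in this fit. Cdc6 (ENSMUSG00000017499.11, chromosome 11, 98907801 to 98923940, plus strand of GRCm38), which loads the MCM helicase, stood at 37.0, 38.0, and 12.4 CPM in PBS and at 1.22, 0.387, and 0.614 CPM with LPS, the latter on 8 to 25 reads. Every LPS library lay far below every PBS library, and the log2 fold change was -5.28 ± 0.79 (SE, edgeR adjusted p = 0.000289). Mcm2, a subunit of the helicase, stood at 137, 160.2, and 88.8 CPM in PBS and 7.72, 6.39, and 3.07 CPM with LPS, a log2 fold change of -4.48 ± 0.63 (edgeR adjusted p = 0.000196). The subunit Mcm5 stood at 159, 161, and 88.0 CPM in PBS and 19.2, 17.9, and 7.18 CPM with LPS, a log2 fold change of -3.19 ± 0.65 (edgeR adjusted p = 0.00219). Within each set, the other subunits Mcm3, Mcm4, Mcm6, and Mcm7 fell as well, with fitted log2 fold changes between -3.81 (Mcm7) and -2.05 (Mcm6). Cdt1, the partner of CDC6 in licensing, was as high in set 3 of PBS as in the other sets, at 79.2, 82.9, and 84.5 CPM, and stood at 13.7, 12.7, and 22.8 CPM with LPS, so that set 3 kept the highest level with LPS (log2 fold change -2.33 ± 0.32, edgeR adjusted p = 0.000145). The GINS subunits Gins1 (-1.67 ± 0.41) and Gins2 (-1.27 ± 0.46) and the helicase activator Cdc45 (-3.27 ± 0.55) were called lower too. Of the Gins2 exon bases, 67.3% overlap exons of Gse1 on the other strand, and it is not stated whether the reads were counted by strand. The exception, Mcm10, stood at 40.5, 45.6, and 14.6 CPM in PBS and 21.3, 20.8, and 8.90 CPM with LPS. It was lower within each set but overlapped between the groups (log2 fold change -0.98 ± 0.72, edgeR adjusted p = 0.298 without the block). With the block, all 12 genes of this group were called lower, Mcm10 among them, against 24.0% of all tested genes.

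The promoters of these genes were searched for the words that E2F and the mitotic regulators are known to bind. RefSeq promoters of GRCm38.p6 were matched to 41 of the 53 genes (45 promoters), that is all but Ccnd1, Mcm4, Tpx2, Kif20a, Pole, Aurkb, Cdc25c, Ccna2, Foxm1, Ccne2, Gins1, and Gins2, and the 250 bases before each start were searched on both strands for 4 E2F words (TTTCCCGC, TTTCGCGC, TTTGCCGC, and TTTGGCGC), which may overlap one another. An E2F word was found for 8 of the 41 genes (Cdc6, Cdk1, Mcm5, Mcm6, Mcm7, Pola1, Rfc3, and Uhrf1), or 17.8% of their promoters, against 1.86% of all 32851 promoters of the table. The cell cycle homology region (CHR) words TTTGAA and TTCGAA were found for 15 genes, or 33.3% of the promoters against 17.1% of all, and the CCAAT box for 31 genes, or 75.6% of the promoters against 33.8% of all. Of the 13 mitosis genes with a promoter in the table, 0 held an E2F word and 6 held a CHR word. The stretches below, from base -160 up to the start site or the first annotated exon, show 2 helicase genes with E2F words, and Cdk1 and Top2a with CHR words. All are written 5′ to 3′ on the gene's own strand, and capitals mark the words (E2F, CHR, or CCAAT, on either strand).
Mcm5: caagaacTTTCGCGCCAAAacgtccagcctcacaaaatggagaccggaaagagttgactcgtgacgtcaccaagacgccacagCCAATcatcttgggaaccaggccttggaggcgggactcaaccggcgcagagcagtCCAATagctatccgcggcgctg
Mcm6: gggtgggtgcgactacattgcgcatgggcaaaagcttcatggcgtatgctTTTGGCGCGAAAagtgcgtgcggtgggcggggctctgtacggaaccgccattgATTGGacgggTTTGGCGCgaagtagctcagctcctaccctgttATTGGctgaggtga
Cdk1: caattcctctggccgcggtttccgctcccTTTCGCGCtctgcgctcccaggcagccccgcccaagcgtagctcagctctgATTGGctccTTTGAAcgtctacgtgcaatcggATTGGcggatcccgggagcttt
Top2a: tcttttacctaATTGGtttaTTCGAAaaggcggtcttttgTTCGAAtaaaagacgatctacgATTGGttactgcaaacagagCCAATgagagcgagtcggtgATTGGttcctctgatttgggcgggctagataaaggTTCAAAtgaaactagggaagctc
They lie at chr8:75109349-75109508 (plus strand), chr1:128359706-128359865 (minus strand), chr10:69352939-69353072 (minus strand), and chr11:99024190-99024349 (minus strand). The Mcm5 stretch holds 2 overlapping E2F words and 2 CCAAT boxes, that of Mcm6 3 E2F words (of which 2 overlap) and 2 CCAAT boxes, that of Cdk1 1 E2F word, 1 CHR word, and 2 CCAAT boxes, and that of Top2a 3 CHR words and 4 CCAAT boxes. A word is a run of letters and not a measured binding site. Genes with an E2F word ranged in their LPS change from Cdc6, the largest, to Rfc3, which did not change detectably.

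Genes of nucleotide supply and DNA synthesis were called lower in 8 of 10 cases, against 20.2% of all tested genes. Their median log2 fold change was -2.21. Prim1, the catalytic subunit of primase, changed most, from 20.2, 22.6, and 9.28 CPM in PBS to 2.00, 1.598, and 0.430 CPM with LPS (7 to 41 reads), a log2 fold change of -3.67 ± 0.76 (edgeR adjusted p = 0.0023). Rrm2, the S-phase subunit of ribonucleotide reductase, stood at 45.3, 42.4, and 10.8 CPM in PBS and 10.6, 5.18, and 3.38 CPM with LPS, and the highest LPS library lay just below the lowest PBS library (log2 fold change -2.35 ± 0.78, edgeR adjusted p = 0.0289). Tk1, thymidine kinase of the salvage pathway, stood at 30.8, 30.2, and 14.7 CPM in PBS and 7.52, 8.67, and 7.31 CPM with LPS (-1.69 ± 0.36, edgeR adjusted p = 0.00276). The polymerase genes Pola1 (-2.59 ± 0.61) and Pole (-3.24 ± 0.77) and the reductase subunit Rrm1 (-2.16 ± 0.60) were called lower as well. Pcna, the sliding clamp that also serves in DNA repair, fell far less. It was even across the sets, at 248, 253, and 244 CPM in PBS and 149, 164, and 172 CPM with LPS, and its small log2 fold change of -0.62 ± 0.12 was called (edgeR adjusted p = 0.0012). DESeq2 did not call it. Of the Pcna transcript words of 50 bases, 19.1% also occur in a pseudogene. Fen1, the flap endonuclease, was called lower at -2.26 ± 0.55 from only 75 to 82 reads per library in PBS, and 84.2% of its exon bases overlap exons of other genes on the opposite strand, so its level is uncertain. Tyms, thymidylate synthase, was lower within each set (-0.43, -0.995, and -0.52 on the log2 scale). It was called lower with the block but not without it (-0.65 ± 0.55, edgeR adjusted p = 0.365). Rfc3, a subunit of the clamp loader, stood at 19.0, 19.7, and 12.3 CPM in PBS and 14.5, 15.4, and 17.99 CPM with LPS. Its LPS library was lower in sets 1 and 2 and higher in set 3, with a fitted log2 fold change of -0.10 ± 0.35 (edgeR adjusted p = 0.859).

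Among transcription factors, checkpoint, repair, and chromatin genes, 6 of 7 were called lower with LPS (median log2 fold change -3.88), against 20.2% of all tested genes. Uhrf1, which maintains DNA methylation at replication forks, changed most, from 119, 139, and 50.8 CPM in PBS to 7.23, 4.17, and 2.52 CPM with LPS (-4.46 ± 0.79, edgeR adjusted p = 0.000859). E2f1, an activator of the replication genes, stood at 66.5, 66.4, and 43.1 CPM in PBS and at 14.1, 13.9, and 10.9 CPM with LPS (-2.18 ± 0.30, edgeR adjusted p = 0.000158). The LPS libraries of these genes did not overlap with those of PBS. E2f2, another activator (-3.98 ± 0.59), the checkpoint kinase Chek1 (-3.999 ± 0.54), and the repair gene Brca1 (-3.88 ± 0.76) were called lower too. E2f8, a repressor of the same program, stood at 15.7, 17.8, and 5.09 CPM in PBS and 5.96, 4.55, and 3.81 CPM with LPS, where the groups overlapped (-1.42 ± 0.52, edgeR adjusted p = 0.0424). Foxm1, the activator of mitosis genes, stood at 28.4, 31.4, and 6.00 CPM in PBS and 11.6, 9.25, and 3.68 CPM with LPS. It was lower in each set and was not called without the block (-1.42 ± 0.75, edgeR adjusted p = 0.147), but was called with it (-1.31 ± 0.16, blocked edgeR adjusted p = 3.05e-05).

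**Figure D2:**
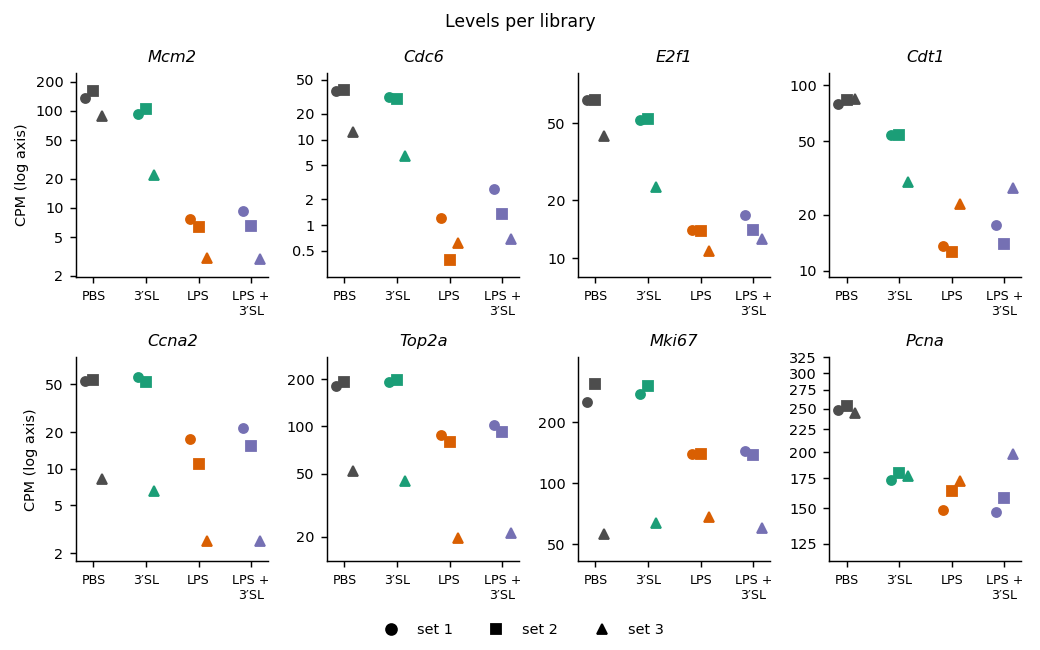
CPM (log axis) of 8 genes in each library, by condition (x axis, color) and library set (marker shape). In Mcm2, Cdc6, E2f1, and Cdt1 all LPS libraries lie below all PBS libraries, whereas in Ccna2, Top2a, and Mki67 the set 3 library of PBS (triangle) lies among or below the LPS libraries of sets 1 and 2, and Pcna spans a narrow range.

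Cyclins moved unevenly with LPS. Of the 8 genes of this group, 2 (Ccne2 and Ccnd1) were called lower without the block, a share near the 20.2% of all tested genes. With the block, 6 of the 8 were called lower, against 24.0% of all tested genes. In all 3 sets, 7 of the 8 were lower, as were 39.0% of all tested genes. Ccne2, an E-type cyclin of S-phase entry, stood at 22.7, 20.98, and 7.66 CPM in PBS and 2.83, 2.32, and 1.84 CPM with LPS (-2.87 ± 0.62, edgeR adjusted p = 0.00297). The other E-type cyclin, Ccne1, stood at 9.62, 6.70, and 3.64 CPM in PBS and 6.74, 6.34, and 6.08 CPM with LPS, so that the groups overlapped and the sets went both ways (-0.06 ± 0.41, edgeR adjusted p = 0.926). Ccnd1, the D-type cyclin that was the most abundant of the 53 genes per kilobase of exon in PBS (121 CPM per kb, ahead of Pcna at 104), is described with the 3′SL comparisons below. Ccna2, the cyclin of S and G2 phase, showed the set difference most strongly, at 53.3, 53.8, and 8.23 CPM in PBS and 17.5, 10.99, and 2.52 CPM with LPS. The drop within each set (-1.61, -2.29, and -1.71) was smaller than the gap between set 3 and the other sets of PBS, and the gene was called with the block (-1.91 ± 0.16, blocked edgeR adjusted p = 8.99e-07) but not without it (edgeR adjusted p = 0.149). Cdk1, the kinase that drives mitosis, stood at 64.6, 63.4, and 25.8 CPM in PBS and 27.1, 23.3, and 9.76 CPM with LPS, with blocked and unblocked log2 fold changes of -1.38 ± 0.14 and -1.35 ± 0.62 (edgeR adjusted p = 6.91e-06 and 0.0998). Ccnb1, the mitotic cyclin, stood at 19.7, 18.8, and 3.85 CPM in PBS and 9.52, 10.6, and 1.96 CPM with LPS and was likewise called only with the block (-0.96 ± 0.16, blocked edgeR adjusted p = 0.000297). Of its transcript words of 50 bases, 23.4% also occur in other genes, most of them pseudogenes. Its paralog Ccnb2 was lower within each set by little (-0.43, -0.15, and -0.08) and was called in neither fit. Cdc25c, the phosphatase that activates Cdk1, had 40 to 207 reads per library in PBS and 5 to 60 with LPS, and was called with the block (-1.26 ± 0.24, blocked edgeR adjusted p = 0.000856).

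Of the 16 mitosis genes, 0 were called with LPS without the block, where 2 had an unadjusted p under 0.05, 12 were called lower with the block, and DESeq2 without the block called 1, Bub1b. Over all tested genes, edgeR called 20.2% lower without the block and 24.0% with it. The median log2 fold change of the 16 genes was -1.29, or about as much within each set (medians -1.10, -1.46, and -1.13). In all 3 sets, 13 of the 16 were lower, as were 39.0% of all tested genes. Bub1b, a kinase of the spindle checkpoint, changed most, from 40.5, 45.6, and 9.34 CPM in PBS to 10.4, 7.56, and 1.78 CPM with LPS (-2.26 ± 0.87, edgeR adjusted p = 0.0527 without the block, and -2.31 ± 0.14, 9.18e-08 with it). Top2a, topoisomerase of chromosome untangling, stood at 182, 191, and 51.9 CPM in PBS and 88.7, 79.6, and 19.6 CPM with LPS and was lower within each set (-1.04, -1.26, and -1.41). The set 3 library of PBS lay below the LPS libraries of sets 1 and 2. The mitotic kinases Plk1 and Aurkb had the same layout. Plk1 stood at 32.1, 27.8, and 6.27 CPM in PBS and 11.4, 9.98, and 2.70 CPM with LPS, and Aurkb at 23.5, 22.3, and 4.96 CPM in PBS and 7.37, 6.68, and 1.29 CPM with LPS. Both were called with the block only, at -1.44 ± 0.15 (blocked edgeR adjusted p = 5.57e-06) and -1.76 ± 0.15 (1.44e-06). Birc5, or survivin, a partner of Aurkb, changed less, from 29.9, 29.1, and 6.85 CPM in PBS to 18.1, 15.6, and 4.60 CPM with LPS (-0.74 ± 0.11 with the block, blocked edgeR adjusted p = 9.55e-05). The other genes called with the block alone were the kinases Aurka (-1.22 ± 0.16) and Bub1 (-1.48 ± 0.16), the checkpoint gene Mad2l1 (-0.75 ± 0.15), the activator Cdc20 of the anaphase-promoting complex (-1.85 ± 0.14), the kinesins Kif11 (-1.56 ± 0.17) and Kif20a (-1.50 ± 0.14), and the kinetochore gene Cenpf (-2.04 ± 0.26). Of the Kif20a exon bases, 29.3% overlap exons of Cdc23 on the other strand. Cenpe, a kinetochore motor, was lower in each set (-0.36, -0.87, and -0.39) and was called in neither fit, its blocked change (-0.55 ± 0.14, blocked edgeR adjusted p = 0.00456) being under 1.5-fold.

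Mki67, the usual marker of dividing cells, was not called lower in either fit. It stood at 251, 307, and 56.1 CPM in PBS and 139.6, 139.6, and 67.8 CPM with LPS, lower by LPS in sets 1 and 2 and higher in set 3 (-0.84, -1.14, and 0.27 on the log2 scale), with a blocked log2 fold change of -0.58 ± 0.24 (blocked edgeR adjusted p = 0.0515). With sets 1 and 2 alone it was among the 47 genes called lower. Its direction in set 3 depended on the scaling, since it had 1664 reads in PBS (TMM factor 1.21) and 1104 with LPS (TMM factor 0.700). Scaled by total counts and with the block, Mki67 was called lower, as were Ccnb2, Ccne1, Rfc3, Cenpe, and Ube2c. In that fit the median log2 change of all tested genes was -0.71. Ube2c, the ubiquitin-conjugating enzyme of mitotic exit, stood at 27.9, 25.9, and 5.84 CPM in PBS and 27.6, 23.5, and 6.20 CPM with LPS, the change nearest to 0 of the group (-0.05 ± 0.80, edgeR adjusted p = 0.967). Tpx2, a spindle assembly factor, was near level in sets 1 and 2 and higher with LPS in set 3, at 68.3, 68.9, and 21.6 CPM in PBS and 61.1, 60.1, and 88.5 CPM with LPS (0.40 ± 0.48, edgeR adjusted p = 0.538). In the same LPS comparison, the summed neutrophil markers of the 3 sets were 162, 296, and 572 CPM in PBS and 249, 479, and 1047 with LPS. Of the 8 markers, 7 had a higher fitted level with LPS, Mmp8 only from a mean of 25.5 to 31.0 CPM. The other, Retnlg, was lower (mean 4.03 and 1.56 CPM). The part of these markers in the values above was not tested.

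**Figure D3:**
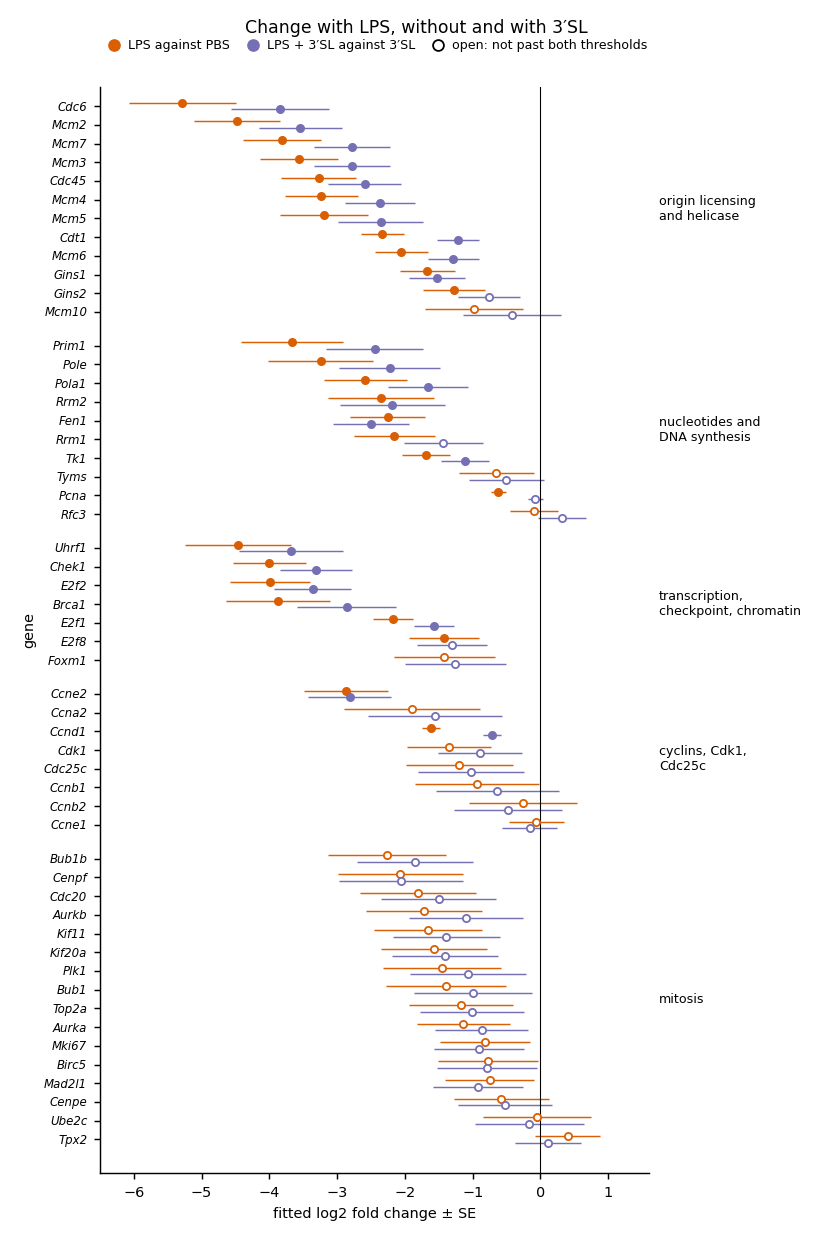
Fitted log2 fold change with LPS (edgeR, 1 mean per condition) ± SE for the 53 genes, grouped by role, against PBS in the absence of 3′SL (orange) and against 3′SL in its presence (purple). Filled points are past both thresholds, which holds for most genes of the upper 3 groups and for 0 of the 16 mitosis genes, whose standard errors are wide.

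With 3′SL present, LPS lowered largely the same genes. LPS + 3′SL against 3′SL shares no library with LPS against PBS. Both use the same 3 sets and 1 estimate of the spread over all 12 libraries, so they are not independent. In LPS + 3′SL against 3′SL, 23 of the 53 genes were called lower and 0 higher, against 14.8% and 14.3% of all tested genes, and all 23 were among the 27 called lower without 3′SL. The 4 others were Gins2, Pcna, Rrm1, and E2f8. The median log2 fold change was -1.31, against -0.07 over all tested genes. In 46 of the 53 genes the library with LPS was the lower one in each set, and in 16 every such library lay below every 3′SL library, against 36.5% and 24.2% of all tested genes. With the block, 44 genes were called lower, against 19.4% of all tested genes. The count without the block was 2 genes when set 2 was left out, 11 without set 1, and 43 without set 3, and 15 without the single 3′SL library of set 2. Shares of all tested genes are not given for these reduced fits. In the same comparison, the summed neutrophil markers were 177, 321, and 331 CPM with 3′SL. With LPS + 3′SL they were 244, 439, and 968 CPM. The summed progenitor markers were 6.51, 9.35, and 4.77 CPM with 3′SL and 4.22, 7.999, and 8.63 CPM with LPS + 3′SL. They were thus lower with LPS + 3′SL in sets 1 and 2 and higher in set 3. The part of the neutrophil and progenitor markers in these values was not tested.

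By role, median log2 fold changes were -2.36 for origin licensing and helicase, -1.55 for nucleotide supply and DNA synthesis, and -2.86 for transcription factors, checkpoint, repair, and chromatin. They were -0.80 for cyclins, Cdk1, and its activator Cdc25c, and -1.004 for mitosis. Cdc6 stood at 31.3, 30.0, and 6.48 CPM with 3′SL and 2.67, 1.33, and 0.697 CPM with LPS + 3′SL (-3.84 ± 0.72, edgeR adjusted p = 0.00182). Mcm2 stood at 93.5, 104, and 21.9 CPM with 3′SL and 9.27, 6.53, and 2.95 CPM with LPS + 3′SL (-3.54 ± 0.61, edgeR adjusted p = 0.00103), so that the groups did not overlap. Mcm5 did overlap, with its 3′SL library of set 3 between the LPS + 3′SL libraries of sets 1 and 2. It stood at 104, 124, and 20.4 CPM with 3′SL and 21.7, 18.9, and 7.77 CPM with LPS + 3′SL (-2.36 ± 0.63, edgeR adjusted p = 0.0135). Pcna did not differ detectably here, at 173, 180.0, and 176 CPM with 3′SL and 147, 158, and 199 CPM with LPS + 3′SL (-0.07 ± 0.12, edgeR adjusted p = 0.673). E2f1 stood at 52.4, 52.6, and 23.3 CPM and 16.7, 14.1, and 12.5 CPM (-1.57 ± 0.29, edgeR adjusted p = 0.00175), and Uhrf1 at 76.3, 87.1, and 11.6 CPM and 7.38, 4.23, and 1.98 CPM (-3.68 ± 0.76, edgeR adjusted p = 0.00321), with 3′SL and with LPS + 3′SL respectively. Ccne2 stood at 19.7, 22.5, and 4.77 CPM with 3′SL and 3.64, 1.52, and 1.501 CPM with LPS + 3′SL (-2.82 ± 0.62, edgeR adjusted p = 0.00439).

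Of the 16 mitosis genes, 0 were called here by edgeR without the block and by DESeq2, 1 had an unadjusted p under 0.05, and 13 were called lower with the block, against 19.4% of all tested genes. Top2a stood at 191, 196, and 45.3 CPM with 3′SL and 101, 92.1, and 21.1 CPM with LPS + 3′SL, with a blocked log2 fold change of -1.03 ± 0.09 (blocked edgeR adjusted p = 2.17e-06). Mki67, at 274, 300.2, and 63.4 CPM with 3′SL and 143, 138, and 59.8 CPM with LPS + 3′SL, was called lower with the block here (-0.73 ± 0.24, blocked edgeR adjusted p = 0.0231), where its set 3 libraries were near level. Bub1b stood at 42.9, 45.7, and 8.03 CPM with 3′SL and 13.4, 10.8, and 2.47 CPM with LPS + 3′SL, a blocked log2 fold change of -1.83 ± 0.14. Ube2c and Tpx2 did not fall in this comparison either, with sets on both sides of 0 (-0.45, -0.03, and 0.59 and -0.43, -0.36, and 1.74 on the log2 scale).

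With 3′SL alone, most replication genes stood lower than in PBS within each set, and the mitosis genes stood near their PBS levels. Against PBS, 0 of the 53 genes were called in edgeR without the block and by DESeq2, as were 0% of all tested genes in edgeR, and 3 of the 53 had an unadjusted p under 0.05. Within the sets, 21 of the 22 genes of origin licensing, helicase, nucleotide supply, and DNA synthesis were lower with 3′SL in all 3 sets, as were 31 of all 53 and 25.1% of all tested genes. The exception was Fen1. The fitted median over the 53 genes, -0.35, was 0.048 without the 3′SL library of set 3 and -0.13 without the PBS library of set 1 or of set 2. Without a whole set, which keeps the conditions balanced over the sets, it was -0.38, -0.33, and -0.31 (set 1, 2, or 3 left out). The set medians over the 12 licensing and helicase genes were -0.59, -0.46, and -1.71 on the log2 scale, and those over the 16 mitosis genes 0.09, -0.01, and -0.17. With the block, 7 of the 53 genes were called lower with 3′SL (Cdc45, Gins2, Mcm2, Mcm3, Mcm5, Mcm7, and Pole) and 0 higher, against 0.860% of all tested genes called lower. Without set 1 or without set 2 this count was 0, and without set 3 it was again 7, with Cdt1, Chek1, Gins1, Pola1, and Uhrf1 joining Mcm2 and Pole. For these fits the share of all tested genes is not given.

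The largest differences with 3′SL came from set 3. Mcm2 stood at 137, 160.2, and 88.8 CPM in PBS and 93.5, 104, and 21.9 CPM with 3′SL, log2 ratios of -0.55, -0.62, and -2.02, and its blocked log2 fold change was -1.04 ± 0.23 (blocked edgeR adjusted p = 0.0298, adjusted p = 0.662 without the block). Mcm5 stood at 159, 161, and 88.0 CPM in PBS and 104, 124, and 20.4 CPM with 3′SL (-0.97 ± 0.25, blocked edgeR adjusted p = 0.0444). Mcm3 went from 192, 219.7, and 123 CPM in PBS to 129, 151, and 27.2 CPM with 3′SL (-1.01 ± 0.27, blocked edgeR adjusted p = 0.0487). The 3′SL library of set 3 was the lowest of the 6 for all 3 of these genes. Mcm7 stood at 93.9, 102, and 51.9 CPM in PBS and 59.1, 74.1, and 15.5 CPM with 3′SL (-0.90 ± 0.22, blocked edgeR adjusted p = 0.0393), and Cdc45 at 22.6, 26.5, and 11.2 CPM and 15.3, 19.8, and 4.81 CPM (-0.69 ± 0.18, adjusted p = 0.0469). Gins2 stood at 21.9, 24.1, and 11.9 CPM and 13.4, 18.1, and 5.09 CPM (-0.74 ± 0.17, adjusted p = 0.0332), and Pole, the catalytic subunit of the leading strand polymerase, at 40.3, 50.5, and 17.4 CPM and 26.7, 31.2, and 4.93 CPM (-0.98 ± 0.23, adjusted p = 0.0337), each in PBS and with 3′SL, with blocked edgeR adjusted p-values.

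In only 2 of the 53 genes, Cdt1 and Pcna, did every 3′SL library lie below every PBS library (8.53% of all tested genes). Cdt1 stood at 54.1, 53.9, and 30.1 CPM with 3′SL against 79.2, 82.9, and 84.5 CPM in PBS (-0.84 ± 0.30, edgeR adjusted p = 0.424). Pcna was even across the sets, at 173, 180.0, and 176 CPM with 3′SL against 248, 253, and 244 CPM in PBS, log2 ratios of -0.52, -0.49, and -0.47. Its blocked adjusted p passed (0.014) but its size did not reach 1.5-fold (-0.50 ± 0.09). Uhrf1 was lower in each set (-0.64, -0.68, and -2.12 on the log2 scale) and just missed the threshold with the block (blocked edgeR adjusted p = 0.0507), as E2f1 did by more (-0.34, -0.34, and -0.89, blocked edgeR adjusted p = 0.0783). By contrast, Mki67 had log2 ratios of 0.13, -0.03, and 0.18 and Top2a of 0.07, 0.04, and -0.19, and Cdk1 stood at 66.2, 67.2, and 20.6 CPM with 3′SL against 64.6, 63.4, and 25.8 CPM in PBS. Ccna2 stood at 56.9, 52.4, and 6.56 CPM with 3′SL and Ccnb1 at 20.9, 18.9, and 3.50 CPM, both close to PBS within each set. The difference between the replication and the mitosis genes in their response to 3′SL was not itself tested. In set 3, markers of other myeloid cells also differed between these 2 libraries: the neutrophil markers summed to 572 CPM in PBS and 331 CPM with 3′SL, and the progenitor markers to 11.1 and 4.77 CPM. In set 1 the neutrophil markers summed to 162 CPM in PBS and 177 CPM with 3′SL, and in set 2 to 296 and 321 CPM. The progenitor markers summed to 5.48 and 6.51 CPM in set 1 and to 8.70 and 9.35 CPM in set 2. In set 3, 7 of the 8 neutrophil markers were lower with 3′SL, and Mmp8 was not (23.8 and 28.1 CPM). Of the 8 progenitor markers, 7 were lower there as well, and Cd34 was not (1.11 and 1.87 CPM). The part of these markers in the 3′SL difference was not tested.

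**Figure D4:**
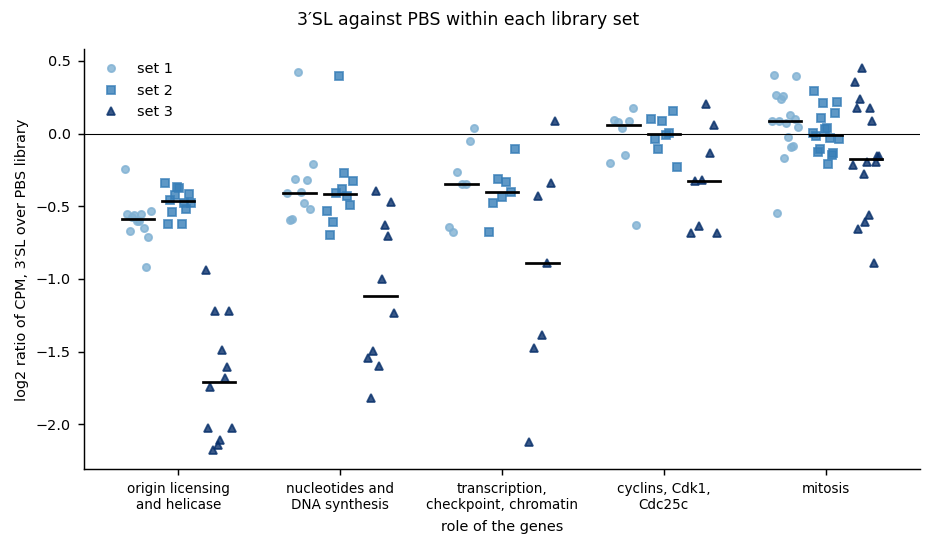
Log2 ratio of CPM of the 3′SL library over the PBS library of the same set (y axis) for each of the 53 genes, by role (x axis) and set (marker), with the median of each set as a black bar. The bars of the 3 groups on the left lie below 0 in all sets, lowest in set 3, and those of mitosis genes lie near 0.

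Under LPS, the only one of the 53 genes called to differ with 3′SL was Ccnd1, and this in the fit with the block and in DESeq2. With the block and without set 3, Plk1 was called as well. LPS + 3′SL against LPS called 0 of the 53 genes in edgeR without the block (0% of all tested genes), with 1 unadjusted p under 0.05, and the median log2 fold change was 0.13. Leaving out single libraries moved this median across 0, to -0.099 without the LPS + 3′SL library of set 1, to -0.17 without the LPS library of set 3, and up to 0.39 without the LPS + 3′SL library of set 3. Without a whole set the median was 0.12, 0.15, and 0.15 (set 1, 2, or 3 left out). The library with 3′SL was the lower one in all 3 sets for 7 genes and the higher one for 23, against 25.4% and 20.9% of all tested genes. The fitted change was largest in Cdc6, which stood at 1.22, 0.387, and 0.614 CPM with LPS and 2.67, 1.33, and 0.697 CPM with LPS + 3′SL and was higher with 3′SL in each set (1.13, 1.78, and 0.18 on the log2 scale), but these levels rest on 8 to 25 reads and 13 to 55 reads and the change was not called (1.07 ± 0.78, edgeR adjusted p = 0.968). Cdk1 was higher with 3′SL in sets 1 and 2 and lower in set 3 (0.61, 0.50, and -0.13), and Ccne1 was the only one of the 53 genes in which every library with LPS + 3′SL lay below every LPS library (4.08, 5.52, and 3.11 against 6.74, 6.34, and 6.08 CPM, log2 fold change -0.59 ± 0.41, edgeR adjusted p = 0.957).

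Ccnd1 (ENSMUSG00000070348.4, chromosome 7, 144929931 to 144939925, minus strand of GRCm38), the D-type cyclin that carries growth factor signals to the cell cycle, fell with LPS both without and with 3′SL. It stood at 499, 540.0, and 676 CPM in PBS, 529, 502, and 435 CPM with 3′SL, 192, 189, and 178 CPM with LPS, and 309, 266, and 316 CPM with LPS + 3′SL. All libraries with LPS lay below all libraries without it, and all LPS + 3′SL libraries above all LPS libraries. The log2 fold change with LPS was -1.62 ± 0.14 in the absence of 3′SL (edgeR adjusted p = 6.16e-06) and -0.72 ± 0.13 in its presence (edgeR adjusted p = 0.00174). LPS + 3′SL exceeded LPS by 0.67 ± 0.13 on the log2 scale, with set ratios of 0.68, 0.49, and 0.83. This difference was not called without the block (edgeR adjusted p = 0.157) and was called with it (blocked edgeR adjusted p = 0.0167) and by DESeq2 (adjusted p = 0.00159). With the block and without set 1 or without set 2 it was not called. It was the 1 gene of the 53 called higher with the block, against 0.685% of all tested genes. Of the Ccnd1 exon bases, 23.4% overlap exons of the neighboring gene LTO1 on the other strand.

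The interaction asks whether the change with LPS differed without and with 3′SL. In edgeR without the block 0 of the 53 genes were called, as were 0% of all tested genes, and 3 had an unadjusted p under 0.05. With the block, Ccnd1 was called, at a log2 difference of 0.89 ± 0.17 (blocked edgeR adjusted p = 0.0288), against 0.266% of all tested genes called in that direction, and DESeq2 called the same gene (adjusted p = 0.0107). With the block and without set 1 or without set 2, 0 genes were called and Ccnd1 lost its call. The difference was positive in each set (0.60, 0.59, and 1.46), and largest in set 3, where Ccnd1 was highest in PBS. Of the 53 genes, 33 had a positive difference in each set, against 22.3% of all tested genes. The fitted median over the 53 genes, 0.41, ran from -0.019 without the 3′SL library of set 3 to 0.77 without the PBS library of set 3, and was 0.14 without the LPS library of set 3, 0.18 without the PBS library of set 2, and 0.20 without the PBS library or the LPS + 3′SL library of set 1. Without a whole set this median was 0.46, 0.45, and 0.41 (set 1, 2, or 3 left out). The set medians over the 22 replication genes were 0.62, 0.45, and 1.56, and those over the mitosis genes 0.03, 0.30, and 0.30. For Mcm2, the LPS + 3′SL libraries stood near the LPS libraries (9.27, 6.53, and 2.95 and 7.72, 6.39, and 3.07 CPM) while the 3′SL libraries stood below PBS, with a log2 difference of 0.94 ± 0.80 (edgeR adjusted p = 0.904). For Ccnd1 the LPS + 3′SL libraries themselves stood higher than the LPS libraries. Its 3′SL libraries stood at 529, 502, and 435 CPM against 499, 540.0, and 676 CPM in PBS, lower in sets 2 and 3.

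**Figure D5:**
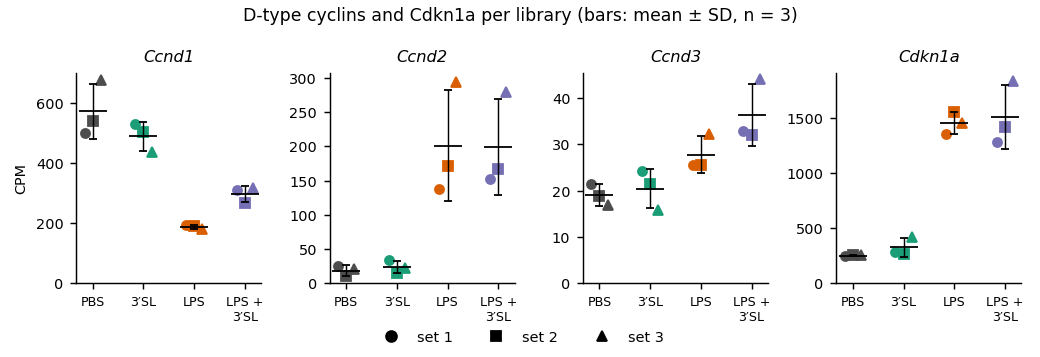
CPM (linear axes from 0) of the D-type cyclins Ccnd1, Ccnd2, and Ccnd3 and of the CDK inhibitor gene Cdkn1a in each library, by condition (color) and set (marker), with the mean and SD of 3 libraries. Ccnd1 falls with LPS, and Ccnd2 and Cdkn1a rise.

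Other genes of the cell cycle were examined in 4 lists of known roles. Among 42 other replication genes, LPS against PBS called 37 lower and 1 higher, with a median log2 fold change of -2.33. Those with the smallest adjusted p were the maintenance methyltransferase Dnmt1, at 280.4, 338, and 227 CPM in PBS and 47.4, 47.1, and 47.7 CPM with LPS (-2.57 ± 0.22, edgeR adjusted p = 6.29e-06), and the polymerase delta subunits Pold2 (-1.48 ± 0.18) and Pold1 (-3.86 ± 0.51). The gene called higher was Orc4 of the origin recognition complex (0.64 ± 0.14, edgeR adjusted p = 0.00274). Among 46 other mitosis genes, 13 were called lower and 1 higher without the block, and 42 lower and 1 higher with it. Over all tested genes, 20.2% were called lower without the block and 24.0% with it. Incenp, the scaffold of the Aurkb complex, was called lower without the block (96.8, 100.4, and 57.2 CPM in PBS, 37.3, 35.7, and 31.7 CPM with LPS, log2 fold change -1.28 ± 0.26), as were Cenpn of the kinetochore (-2.53 ± 0.72) and the condensin subunit Ncaph (-2.51 ± 0.73). The mitosis gene called higher was Pttg1, securin, at 8.13, 9.75, and 9.85 CPM in PBS and 52.9, 58.0, and 80.9 CPM with LPS (2.79 ± 0.17, edgeR adjusted p = 1.17e-06). With 3′SL alone, 35 of the 42 other replication genes were lower in each set, and 16 of the 46 other mitosis genes, against 25.1% of all tested genes.

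Of 30 G1 control genes, 14 were called lower and 6 higher with LPS, against 20.2% and 18.3% of all tested genes. Ccnd2, another D-type cyclin, rose from 24.2, 9.61, and 19.9 CPM in PBS to 138, 172, and 294 CPM with LPS (3.49 ± 0.45, edgeR adjusted p = 0.000109), opposite to Ccnd1. Ccnd3 stood at 21.5, 18.9, and 16.8 CPM in PBS and 25.5, 25.5, and 32.4 CPM with LPS and was under 1.5-fold (0.54 ± 0.19, edgeR adjusted p = 0.0355). The CDK inhibitor gene Cdkn1a, or p21, stood at 240.1, 249, and 253 CPM in PBS and 1352, 1550.3, and 1455 CPM with LPS (2.55 ± 0.20, edgeR adjusted p = 3.41e-06), and the antiproliferative gene Btg2 rose as well (2.31 ± 0.25, edgeR adjusted p = 2.86e-05). Of other inhibitor genes, Cdkn1b, or p27, had a log2 fold change of -0.56 ± 0.23 and was not called (edgeR adjusted p = 0.0672), and Cdkn2c, or p18, was called lower (-1.97 ± 0.62, edgeR adjusted p = 0.0234). Myc, which promotes growth, fell from 48.1, 29.6, and 81.4 CPM in PBS to 24.4, 18.9, and 14.9 CPM with LPS (-1.45 ± 0.44, edgeR adjusted p = 0.0192). Mybl2, which encodes B-MYB of the mitotic program, was called lower (-3.07 ± 0.57), as were Skp2 of the ubiquitin ligase for p27 (-2.26 ± 0.33), Cdc25a, an activating phosphatase (-0.99 ± 0.14), and the E2F repressor gene E2f6 (-1.87 ± 0.22). Of the retinoblastoma family, Rb1 fell (-0.79 ± 0.19, edgeR adjusted p = 0.00636) and Rbl1, or p107, was higher in each set without being called (0.98 ± 0.41, edgeR adjusted p = 0.0688).

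Of the p53 target genes, 5 of 15 were called lower with LPS and 2 higher, against 20.2% and 18.3% of all tested genes, and the median log2 fold change was -0.10. The 2 called higher were Cdkn1a and the p53 inhibitor gene Mdm2 (1.24 ± 0.21, edgeR adjusted p = 0.000546), and those called lower with the smallest adjusted p were the sestrin genes Sesn2 (-1.25 ± 0.16) and Sesn1 (-2.91 ± 0.46) and Zmat3 (-1.47 ± 0.27). In 3′SL against PBS, 0 genes of these 4 other lists were called by edgeR without the block or by DESeq2, with an unadjusted p under 0.05 for 1 G1 control gene and 3 p53 target genes. With the block, this comparison called 6 of the 42 other replication genes lower (0.860% of all tested genes), among them Pold1 (-0.84 ± 0.19, blocked edgeR adjusted p = 0.0296), and 0 of the 46 other mitosis genes. It called 1 of the 30 G1 control genes higher and 0 of the 15 p53 target genes, against 283 of the 14308 tested genes called higher. The G1 control gene was the antiproliferative gene Btg1, which is named after its values were seen (0.59 ± 0.12, blocked edgeR adjusted p = 0.0223).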

How the data were processed

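The 12 libraries were poly(A)-selected and strand-specific (TruSeq), and the authors deposited 1 table of raw read counts per gene for each. Per the labels, the submitters' processing notes list FastQC, Trimmomatic, STAR, HTSeq, and DESeq2. Their versions, roles, the genome build, the annotation, and the strand setting are not given in the sources used here. Gene identifiers were matched to GENCODE M21 (GRCm38) for symbols and positions.

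Counts were analyzed with edgeR 4.0.16 (limma 3.58.1, R 4.3.3): filterByExpr, which kept 14308 of 43626 genes, TMM scaling, and the quasi-likelihood test with 1 mean per condition over all 12 libraries. Calls required a Benjamini-Hochberg adjusted p under 0.05 over all tested genes and a change of 1.5-fold. DESeq2 1.42.0, and edgeR with the 3 library sets as a blocking factor, were run beside it, and the code was tested on simulated counts. Whether the sets pair the libraries was checked by the correlation of residuals of log2(CPM + 1) over all tested genes, with a mean of 0.673 within sets (lowest 0.529) and -0.370 between sets (highest -0.0978). Over the 53 genes the means were 0.660 within sets (lowest 0.293) and -0.288 between sets (highest 0.826). The pairing rests on the order of the label numbers and on the correlation over all tested genes. The common biological coefficient of variation was 0.310, and 0.133 with the block.

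The 53 genes and the other lists were chosen with earlier results of these data known. Levels in every library were given for 22 chosen genes of the 53, for those called in a 3′SL comparison, and for those of largest and smallest change with LPS in each role. From the other lists, 9 chosen G1 control genes and the 3 of smallest adjusted p per list and direction were named. RefSeq promoters carry GRCm38.p6 coordinates.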

Additional observations from a re-analysis of the deposited data

Results flagged for a closer look

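The change of Ccnd1 with LPS was smaller with 3′SL than without it, a difference that was called in some fits only. With the library sets as a block, the log2 difference between the LPS changes was 0.89 ± 0.17 (SE, 3 libraries per condition; blocked edgeR adjusted p = 0.0288), and it was positive in 3 of 3 sets. Without the block the test of the difference missed the threshold (edgeR adjusted p = 0.505), and with the block the call was lost when set 1 or set 2 was left out, where the log2 difference was 1.03 and 1.04.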

How the results depend on the processing

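Of the gene results recomputed under the alternatives, none that was called without or with the block changed direction. The counts of the 53 genes called depended most on how the library sets were handled. For LPS against PBS, edgeR called 20.2% of all tested genes lower without the block and 24.0% with it. For LPS + 3′SL against 3′SL, these shares were 14.8% and 19.4%. Shares of all tested genes are not given here for the other fits. With total counts and the block, the median log2 change of all tested genes was -0.71 for LPS against PBS and -0.54 for LPS + 3′SL against 3′SL. For LPS against PBS (27 called), the library sets as a replicate block gave 46 in edgeR, 45 in DESeq2, and 52 in edgeR scaled by total counts. Leaving out set 2 gave 15 and set 3 47 without the block, and with it leaving out set 1, 2, or 3 gave 44, 43, and 48. For LPS + 3′SL against 3′SL (23 called) the replicate block gave 44, 44, and 48 in the same 3 fits. Leaving out set 1, 2, or 3 gave 11, 2, and 43 without the block and 37, 35, and 43 with it. For 3′SL against PBS (0 called) the block gave 7, 13, and 10 in the same 3 fits, and 7 without set 3, and 0 without set 1 or set 2. For LPS + 3′SL against LPS (0 called), DESeq2 gave 1, each of these 3 block fits 1, and leaving out set 3 gave 1 without the block and 2 with it, whereas the block without set 1 or set 2 gave 0. For the interaction (0 called), DESeq2 gave 1, the block fits 1, 8, and 2, and the block gave 0 without set 1, 0 without set 2, and 5 without set 3. Leaving out 1 library at a time gave 24 to 30 genes for LPS against PBS, 15 to 27 for LPS + 3′SL against 3′SL, and 0 for each of the other comparisons. It moved the median log2 change of the 53 genes between -0.63 and 0.048 for 3′SL against PBS, -0.17 and 0.39 for LPS + 3′SL against LPS, and -0.019 and 0.77 for the interaction, so that these medians changed sign. Leaving out 1 library also gives 1 condition another mix of the sets, which differ in level. Leaving out set 1, 2, or 3 whole, without the block, kept the signs. The medians were then -0.38, -0.33, and -0.31 for 3′SL against PBS, 0.12, 0.15, and 0.15 for LPS + 3′SL against LPS, and 0.46, 0.45, and 0.41 for the interaction.

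The other alternatives (DESeq2, its size factors, total counts, other count minimums, only the conditions compared, no minimum fold) kept the LPS counts between 25 and 35 without 3′SL and between 18 and 25 with it. Total counts moved the median log2 change of all genes with LPS to -0.71 without 3′SL and -0.54 with it. The fits with DESeq2 and the block, with total counts and the block, and with the block and a set left out were chosen after the data were seen. With few reads under LPS, as in Cdc6 and Prim1, differences between low levels were not detectable at this depth.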

Other observations

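Under LPS with the library sets as a block, the stress-response gene Sesn1 was called higher with 3′SL. It stood at 189.5, 231, and 125 CPM in PBS, 158, 199, and 77.1 CPM with 3′SL, 28.9, 29.9, and 14.0 CPM with LPS, and 57.9, 64.4, and 25.4 CPM with LPS + 3′SL. LPS + 3′SL exceeded LPS by 0.996 ± 0.12 on the log2 scale (blocked edgeR adjusted p = 0.00148; 0.683 without the block). The antiproliferative gene Btg2 stood at 8.99, 8.67, and 9.85 CPM in PBS, 10.2, 12.5, and 13.6 CPM with 3′SL, 37.0, 37.3, and 62.2 CPM with LPS, and 23.4, 27.5, and 39.4 CPM with LPS + 3′SL. Its interaction of LPS and 3′SL was -0.98 ± 0.19 with the block (blocked edgeR adjusted p = 0.0307; 0.703 without it). Both genes were looked at after their values were seen.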
